A study of Rattus norvegicus with 112 samples.

Results

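Bdnf, the gene of brain-derived neurotrophic factor, was read by 7 probe sets on an array of rat neurobiology genes, out of 1263 probe sets that were not controls. A probe set is a group of short oligonucleotides that together give 1 signal for 1 transcript sequence. The 7 were all those that the array's annotation pairs with Bdnf, namely D10938exon_s_at, rc_AI030286_s_at, S71196mRNA_s_at, S71201mRNA_at, S76758_i_at, S76799_at and X67108_at. The gene was chosen on its signal in these arrays, because it was high after pulses of NMDA and after 360 min in NMDA. Its values in the pulse and continuous experiments are therefore given as a description, without a test, and tests are given for the other experiments and for the length of the pulse.

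The 112 arrays were hybridized with total RNA of cortical neurons of the rat, kept in primary culture. NMDA activates the glutamate receptors named after it, nicotine activates nicotinic acetylcholine receptors, and 4R is described in the labels as a non-competitive antagonist of nicotinic receptors. In the pulse experiment, cultures received 1 mM NMDA for 10, 30 or 60 min and were harvested 24 h after it was washed off, with 4 arrays a group and 4 controls. In the continuous experiment, cultures were harvested after 10, 30, 60, 180 or 360 min in 1 mM NMDA, with 3 arrays a group and 3 controls. The crossed experiment set 10 uM nicotine for 18 h followed by 1 mM NMDA for 60 min, that NMDA alone and that nicotine alone against control, with 3 arrays each and no wash. The washed-out experiment set a 30 min pulse of 1 mM NMDA combined with 18 h of 10 uM nicotine, the NMDA alone and the nicotine alone against control, with harvest 24 h after washing and 5 samples each. Its 20 samples were hybridized in a first run and again in a repeat run, which the labels attribute to an oven failure without stating which arrays it touched. Further runs held 3 treated and 3 control arrays each for 10 uM nicotine for 15 min with harvest 45 min after its removal, 4R at 2 uM given over 18 h, and the same 4R treatment with harvest 24 h after its removal. The controls carry no treatment in the labels, and neither the age nor the sex of the animals is given there.

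BDNF is a secreted neurotrophin that supports the survival of neurons and the strength of synapses, mainly through the receptor tyrosine kinase TrkB, the product of Ntrk2, and also through the neurotrophin receptor p75, the product of Ngfr. The gene has several promoters, each joined to a first exon of its own, and the protein is coded in a shared last exon, so that 1 gene gives many transcripts. Calcium entry through NMDA receptors and voltage-gated channels is known to raise its transcription in neurons, in part through CREB, a factor that binds the cAMP response element.

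In RefSeq's GRCr8 assembly of the rat genome, Bdnf lies on the plus strand of chromosome 3 from 116619633 to 116670212. The promoter table held 6 Bdnf transcription starts, and the 250 bases before each were searched on both strands for TGACG, the core of the cAMP response element, and for the full element TGACGTCA, which contains the core, the E box CACGTG and the AP-1 site TGANTCA. The core occurred before 1 of the 6 Bdnf starts and before 18.2% of all 33469 promoters. The full element and the E box occurred before 0 of the 6, against 1.6% and 5.6% of all promoters, and the AP-1 site before 1 of the 6, against 6.3%. The promoter with the core belongs to start 4 along the gene and is shown because it holds the letters of the element through which calcium is known to act. It spans chr3:116637608-116637857, ends at the base before the start, and carries the core, in capitals and read on the opposite strand, from 35 bases before the start.
Bdnf, start 4: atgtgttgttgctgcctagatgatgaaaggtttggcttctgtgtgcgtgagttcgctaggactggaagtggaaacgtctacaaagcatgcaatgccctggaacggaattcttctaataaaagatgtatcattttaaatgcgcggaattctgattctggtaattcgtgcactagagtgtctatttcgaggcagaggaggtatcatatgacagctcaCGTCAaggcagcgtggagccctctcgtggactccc
A match in these letters is a description and not a measured site. The array annotation does not say which first exon each probe set reads, and no probe set is assigned to this promoter here.

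The signal is the deposited linear intensity, scaled by the authors so that arrays have nearly the same mean. Levels are never set against each other between probe sets, because their oligonucleotides differ, and only changes are compared. Fold changes are on a log2(signal + offset) scale, with an offset of 57.1 to 88.1 according to the run, and so understate the change of a dim probe set. Over the 30 control arrays of all runs, D10938exon_s_at had a lowest, median and highest signal of 81.9, 509 and 3504. This probe set was used as the lead, and 3504 and the next highest control value, 1579, belong to control replicates 3 and 4 of the washed-out repeat run.

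Of the arrays in replicated runs, 11 correlated with the others of their run less than the rest did. Control replicates 3 and 4 of the washed-out repeat run stood farthest apart, with a median correlation of 0.2 and 0.588 against 0.932 for the run. The others were replicate 3 of the 10 min pulse, replicate 4 of the 60 min pulse, replicates 2 and 3 of 10 min and replicate 3 of 360 min in the continuous experiment, replicate 2 of NMDA and of control in the crossed experiment, and replicate 5 of nicotine plus NMDA and of nicotine in the first washed-out run. Markers of neurons were on the array for 8 of 10 genes, with a summed signal of 39786 to 153544, lowest in replicate 3 of the 10 min pulse. Astrocyte markers (4 of 7 genes) summed to 4030 to 45602, oligodendrocyte markers (4 of 6) to 1635 to 16096, and the 1 microglial marker present read 15.3 to 2069. No marker was at 0 on any array of these runs. A signal above 0 does not by itself show that a cell type was present. Fewer cells of a type and less RNA per cell cannot be told apart.

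Bdnf was high a day after every length of NMDA pulse. D10938exon_s_at read 1122, 402, 436 and 522 in control cultures, 5850, 6360, 8226 and 2890 after a 10 min pulse, 5563, 4566, 2990 and 3324 after 30 min, and 6026, 4563, 2860 and 6077 after 60 min. Every pulsed array lay above every control array. The difference from control was 3.12, 2.68 and 2.90 on the log2 scale after 10, 30 and 60 min (SE 0.41 each, n = 4 each). Without the arrays that stand apart it was 2.93, 2.68 and 2.78. Replicate 1 of the 30 min pulse carries 60 min in 1 label field, and without that array the 30 min difference was 2.52 (SE 0.44). The GAPDH 3′ to 5′ signal ratio, a sign of RNA quality, was 1.36 to 1.75 in controls, 1.32 to 2.61 after 10 min, 1.22 to 1.64 after 30 min and 1.22 to 12.34 after 60 min, where 12.34 belonged to replicate 4, an array that stands apart. Neuron marker sums were 117352 to 132300 in controls, 39786 to 133527 after 10 min, 98374 to 124249 after 30 min and 101031 to 125069 after 60 min, and their part in the result was not tested.

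The other probe sets fell into a group with large and a group with small differences. rc_AI030286_s_at read 253, 202, 287 and 20.2 in controls, 2080, 3120, 928 and 585 after 10 min, 2450, 1873, 1188 and 1316 after 30 min, and 2978, 2387, 1001 and 2044 after 60 min. S76758_i_at read 258, 268, 337 and 112 in controls, 2913, 4960, 1612 and 1020 after 10 min, 3246, 2290, 572 and 1661 after 30 min, and 4316, 3219, 463 and 1592 after 60 min. In both, no pulsed array reached down to the controls, and replicate 3 and 4 arrays were mostly the lower ones. S71196mRNA_s_at read 305, 302, 107 and 329 in controls, 1905, 2753, 1525 and 986 after 10 min, 2087, 1589, 1084 and 1477 after 30 min, and 2171, 1148, 541 and 824 after 60 min. X67108_at read 256, 310, 111 and 219 in controls, 670, 1150, 149 and 1029 after 10 min, 873, 772, 899 and 704 after 30 min, and 756, 842, 711 and 549 after 60 min. X67108_at overlapped its controls in 1 array, replicate 3 of the 10 min pulse, which stands apart. Together with D10938exon_s_at these 5 probe sets differed from control by 1.29 to 3.18 on the log2 scale.

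S71201mRNA_at and S76799_at did not follow them. S71201mRNA_at read 364, 95.7, 445 and 324 in controls, 104, 348, 1315 and 163 after 10 min, 395, 110, 519 and 260 after 30 min, and 389, 104, 617 and 917 after 60 min. S76799_at read 938, 738, 1154 and 1019 in controls, 1159, 1021, 2985 and 1414 after 10 min, 1050, 1284, 1505 and 913 after 30 min, and 1078 to 2108 after 60 min. Pulsed and control arrays overlapped at all 3 lengths in both, and the differences lay between 0.04 and 0.62. The highest reading of each came from replicate 3 of the 10 min pulse. Against S71201mRNA_at, the log2 difference of D10938exon_s_at was larger by 2.95, 2.64 and 2.42 after 10, 30 and 60 min, and against S76799_at by 2.50, 2.40 and 2.30. These differences between probe sets rest on the arrays the gene was chosen on and carry no test.

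Every array lay above every control array for 4 of the 7 Bdnf probe sets after 10 min, for 5 after 30 min and for 5 after 60 min. Over all 1263 probe sets the same held for 3.09% at 10 min, 2.77% at 30 min and 2.85% at 60 min. Nothing is read from these shares, since the gene was chosen on these contrasts.

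The gene was chosen for its rise over control, and the length of the pulse was tested without the control arrays. The pulsed arrays are the same ones the choice used, so this test is not independent of it. After 60 min against 10 min, D10938exon_s_at differed by -0.22 (SE 0.41, 95% interval -1.07 to 0.63, adjusted p = 0.991 by limma). The 7 probe sets lay between -0.67 for S71196mRNA_s_at and 0.48 for rc_AI030286_s_at. None passed the threshold of 0.05 on the adjusted p or reached an unadjusted p under 0.05 (0 of 7), and 0% of all 884 probe sets tested passed. The interval allows any difference between -1.07 and 0.63 after the longer pulse.

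Other pulsed material was read on single arrays. In a second pulse set with 1 array a group, D10938exon_s_at read 485 in the control and 2688, 2511 and 3394 after 10, 30 and 60 min. S71196mRNA_s_at read 68.3 in that control and 930, 644 and 544 after the pulses. rc_AI030286_s_at read 244 in the control and 1413, 1163 and 314, so that its 60 min array was close to the control. S76758_i_at read 338 in the control and 1081, 810 and 704, and X67108_at 206 in the control and 613, 476 and 460. S71201mRNA_at, which overlapped its controls in the replicated set, here read 50.2 in the control and 413, 88.2 and 346 after the pulses, and S76799_at read 1257 in the control and 911, 1302 and 610. With 1 array a group these values have no replicate check. Of the 4 repeat arrays of pulse samples, that of replicate 3 at 10 min held the same values as the first array to within 0.05 at 1320 of 1322 probe sets and was counted once. On the other 3, D10938exon_s_at read 3240 against 2890 on the first array (10 min, replicate 4), 3509 against 2990 (30 min, replicate 3) and 3431 against 6077 (60 min, replicate 4). The last of these first arrays is the one with the GAPDH ratio of 12.34, and its repeat array had a ratio of 1.88. In the same order, S71196mRNA_s_at read 469 against 986, 499 against 1084 and 655 against 824. rc_AI030286_s_at read 1604 against 585, 1313 against 1188 and 1628 against 2044. S76758_i_at read 1169 against 1020, 376 against 572 and 814 against 1592. S71201mRNA_at read 204 against 163, 698 against 519 and 94.4 against 917.

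While NMDA stayed on the cultures, the signal of D10938exon_s_at overlapped the control level up to 60 min and was high at 180 and 360 min. Other Bdnf probe sets differed from this course. D10938exon_s_at read 667, 352 and 458 in controls, 3005, 407 and 403 after 10 min, 747, 617 and 568 after 30 min, 1249, 485 and 881 after 60 min, 4433, 1311 and 3807 after 180 min, and 4084, 1608 and 7695 after 360 min. Treated arrays overlapped the controls at 10, 30 and 60 min and lay above all of them at 180 and 360 min. The 10 min value of 3005 belongs to an array that stands apart. The differences from control were 0.68, 0.36, 0.68, 2.37 and 2.75 at 10, 30, 60, 180 and 360 min (SE 0.66 each, n = 3 each). Without the arrays that stand apart they were -0.21, 0.36, 0.68, 2.37 and 3.34.

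The probe sets differed in size of change at 180 min, when all arrays of D10938exon_s_at and rc_AI030286_s_at lay above their controls. At that time rc_AI030286_s_at was higher than control by 2.13 (SE 0.54) and X67108_at by 1.70 (SE 0.54), while S76758_i_at was at 0.22 (SE 0.57) and S71196mRNA_s_at at 0.18 (SE 0.60). At 360 min the same probe sets stood at 2.77, 2.36, 1.81 and 1.10. S76758_i_at showed the step plainly, with 136, 469 and 425 in controls, 306, 222 and 737 at 180 min and 820, 1713 and 1576 at 360 min. At 180 min its arrays overlapped the controls and at 360 min none did.

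rc_AI030286_s_at read 266, 415 and 29.7 in controls, 402, 350 and 482 at 60 min (a difference of 0.86), 1220, 531 and 2056 at 180 min and 2257, 864 and 2814 at 360 min. X67108_at read 214, 105 and 73.5 in controls, 413, 378 and 356 at 60 min, 741, 182 and 1320 at 180 min, and 1385, 536 and 1259 at 360 min. Its 60 min arrays lay above all controls, a difference of 1.16 (SE 0.54). The same held at 60 min for 2.93% of all 1263 probe sets. At 180 min replicate 3 of X67108_at, at 182, lay below the highest control, and at 360 min no array did. In rc_AI030286_s_at, X67108_at and D10938exon_s_at, replicate 3 was the lowest array at 180 and at 360 min.

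S71196mRNA_s_at went the other way early, with 567, 163 and 934 in controls, 89.9, 277 and 120 at 10 min, 92.6, 280 and 139 at 30 min, and 68.7, 618 and 62 at 60 min. These are differences of -1.22, -1.16 and -1.12 (SE 0.60 each), but control replicate 3 at 163 overlapped the treated arrays at each time. S71201mRNA_at differed by 0.22 to 0.89 and S76799_at by -0.17 to 0.30 over the 5 times. Every array lay above every control for 2 of the 7 Bdnf probe sets at 180 min and 4 at 360 min, against 2.61% and 4.91% of all probe sets.

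The crossed experiment read cultures at the end of 60 min in NMDA. D10938exon_s_at read 634, 763 and 465 after nicotine and NMDA, 659, 662 and 293 after NMDA, 609, 486 and 533 after nicotine, and 506, 81.9 and 523 in controls. All 4 groups overlapped, and the lowest reading, the control of 81.9, came from an array that stands apart. NMDA minus control was 0.66 (SE 0.50, 95% interval -0.42 to 1.75, adjusted p = 0.972 by limma) with all arrays and -0.19 without the arrays that stand apart. Nicotine plus NMDA against nicotine was 0.16 (SE 0.50, adjusted p = 0.996). None of the 6 Bdnf probe sets that passed the filter on dim signals was called in either contrast, where 0.905% and 1.02% of all tested probe sets were, and 0 had an unadjusted p under 0.05.

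Nicotine for 18 h against control was 0.74 (SE 0.50, adjusted p = 0.748) for D10938exon_s_at and 0.06 without the arrays that stand apart. Nicotine plus NMDA against NMDA was 0.24 (SE 0.50, adjusted p = 1). The interaction, which asks whether nicotine altered the response to NMDA, was -0.51 (SE 0.71, 95% interval -2.04 to 1.03, adjusted p = 0.997). In these 3 contrasts 0 Bdnf probe sets and 0% of all probe sets passed, and 0 of 6 Bdnf probe sets had an unadjusted p under 0.05. Immediate early genes did change here. Fos rose by 1.94 with NMDA alone (adjusted p = 2.24e-05) and by 2.09 with NMDA after nicotine (adjusted p = 1.42e-05), and Egr1 rose by 1.38 in the second of these (adjusted p = 0.0279).

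The washed-out experiment repeated a 30 min pulse with harvest 24 h later, in samples on which the gene was not chosen. On the repeat arrays D10938exon_s_at read 2053, 1740, 2017, 1470 and 823 after nicotine and NMDA, 2269, 2685, 1565, 1256 and 682 after NMDA, 585, 549, 377, 529 and 678 after nicotine, and 534, 739, 3504, 1579 and 437 in controls. The same samples read, in the first run, 2464, 1725, 2153, 1403 and 1010 after nicotine and NMDA, 2394, 2535, 1510, 1171 and 867 after NMDA, 445, 377, 265, 424 and 136 after nicotine, and 312, 454, 404, 512 and 613 in controls. There, both groups with NMDA lay above both groups without it. On the repeat arrays that held except for controls 2, 3 and 4, of which control 2 at 739 exceeded only the lowest NMDA array.

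Between the runs, control 3 was 8.66 times and control 4 3.08 times as high in the repeat run as in the first run. For the other 18 samples this ratio had a lowest, median and highest value of 0.71, 1.05 and 4.98. Repeat-run controls 1 to 5 had neuron marker sums of 113044, 139230, 43593, 102270 and 136989 and oligodendrocyte marker sums of 4181, 4087, 13582, 11006 and 3756. Astrocyte marker sums were 22327, 22598, 4030, 23351 and 25571, and the microglial marker read 327, 266, 2069, 266 and 134. Control 3 was thus low in neuron and astrocyte markers and high in the microglial marker, and controls 3 and 4 were high in oligodendrocyte markers. First-run controls had sums of 121547 to 139963 for neurons, 18050 to 23674 for astrocytes and 2943 to 4488 for oligodendrocytes, and 86.5 to 258 for the microglial marker. The part of this in the Bdnf readings was not tested.

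In the repeat run, NMDA minus control was 0.58 for D10938exon_s_at (SE 0.45, 95% interval -0.37 to 1.52, adjusted p = 0.454 by limma), and did not pass. Of 4 Bdnf probe sets tested 0 passed, against 0.226% of all 884. An unadjusted p under 0.05 was found for 1 of them, S76799_at at -0.84, and for 157 of all 884. Without controls 3 and 4 the lead stood at 1.36 (adjusted p = 0.0605). The lead rose in the first run by 1.68 (SE 0.31, 95% interval 1.03 to 2.33, adjusted p = 0.0025), and rc_AI030286_s_at rose by 1.46 (adjusted p = 0.00537), S76758_i_at by 1.16 (adjusted p = 0.0199) and S71201mRNA_at by 1.13 (adjusted p = 0.0114). Those were 4 of 6 Bdnf probe sets tested, in a run where 13.9% of all probe sets passed. The filter level of that run, 255, applied to the mean over all groups. S71201mRNA_at averaged 164 in controls and 242 after nicotine, and so passed the filter only through the groups with NMDA. The same held for S71196mRNA_s_at at 152 and 225, while rc_AI030286_s_at at 260 and 222 lay close to the level. S71196mRNA_s_at was at 1.01 (adjusted p = 0.0776) and S76799_at at 0.22 (adjusted p = 0.405).

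S71201mRNA_at, which overlapped its controls after pulses in the replicated pulse set, read 311, 426, 276, 425 and 587 after NMDA and 172, 114, 170, 55.5 and 310 in controls in the first run. Its repeat-run signals were 409, 488, 338, 479 and 391 after NMDA and 354, 524, 275, 356 and 112 in controls, and it did not pass the filter. The groups overlapped in both runs, in the first run through 1 control at 310.

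With nicotine before it, the pulse gave differences in the same direction. In the repeat run nicotine plus NMDA minus nicotine was 1.43 for D10938exon_s_at (SE 0.45, 95% interval 0.49 to 2.38, adjusted p = 0.478) and 1.99 for rc_AI030286_s_at (SE 0.40, adjusted p = 0.0644). rc_AI030286_s_at had the smallest p of all 884 in this contrast, in which 0% passed. Its run mean of 582 passed the filter level of 427.1, and the groups with NMDA raised that mean. Its group means were 811 after nicotine and NMDA, 791 after NMDA, 155 after nicotine and 572 in controls. Its rank is therefore a description. Of the 4 Bdnf probe sets tested 0 passed and 3 had an unadjusted p under 0.05, as did 40 of all 884. Fitted on these groups alone, which leaves the spread of the controls out, both rose past the threshold, with adjusted p of 0.0255 for D10938exon_s_at and 0.0227 for rc_AI030286_s_at. In the first run D10938exon_s_at rose by 2.24 (SE 0.31, adjusted p = 0.000302) and rc_AI030286_s_at by 1.71 (SE 0.30, adjusted p = 0.00316), 2 of 6 Bdnf probe sets tested against 2.04% of all.

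rc_AI030286_s_at read 972, 664, 1386, 568 and 466 after nicotine and NMDA and 239, 48.5, 173, 140 and 175 after nicotine in the repeat run, without overlap. In the first run it read 873, 1083, 1332, 852 and 355 after nicotine and NMDA and 193, 316, 133, 287 and 183 after nicotine, again without overlap. Arrays with NMDA lay above all arrays without it for 2 Bdnf probe sets in the repeat run and 3 in the first run when nicotine had been given, against 2.61% and 1.9% of all probe sets. Without nicotine the numbers were 0 in the repeat run and 4 in the first run, against 0.95% and 6.41%. Both runs used the same samples and are not independent of each other.

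In none of the contrasts that set nicotine against its absence did a Bdnf probe set pass the threshold. For the repeat run, nicotine minus control was -0.84 for D10938exon_s_at (SE 0.45, adjusted p = 0.269), and -0.05 (SE 0.36, adjusted p = 0.971) without control replicates 3 and 4. rc_AI030286_s_at was at -1.50 (SE 0.40, adjusted p = 0.191 by limma) and S76799_at at -1.20 (SE 0.37, adjusted p = 0.191 by limma). rc_AI030286_s_at read 239, 48.5, 173, 140 and 175 after nicotine and 291, 505, 664, 1048 and 350 in controls, and S76799_at read 748, 694, 788, 610 and 739 after nicotine and 1020, 987, 4546, 3573 and 873 in controls. In both, each nicotine array lay below each control. The share of all probe sets that lay below their controls in this way was not counted, and nothing is read from the separation. The first run gave -0.20 (adjusted p = 0.77) for rc_AI030286_s_at and 0.07 (adjusted p = 0.871) for S76799_at. On the repeat arrays, nicotine plus NMDA minus NMDA was 0.01 (SE 0.45, 95% interval -0.93 to 0.96, adjusted p = 0.999). The interaction was 0.85 (SE 0.64, 95% interval -0.48 to 2.19, adjusted p = 0.728), and 0.07 (SE 0.48, adjusted p = 0.988) without control replicates 3 and 4. In these 3 contrasts 0 of 4 Bdnf probe sets and 0% of all probe sets passed. An unadjusted limma p under 0.05 was found for 2, 0 and 2 Bdnf probe sets, and for 187, 4 and 33 of all 884 tested. In the first run the 3 values were -0.47 (adjusted p = 0.464), 0.09 (adjusted p = 1) and 0.56 (SE 0.44, 95% interval -0.36 to 1.48, adjusted p = 0.736), where 0.339%, 0% and 0% of all probe sets passed. The intervals of the interaction allow a difference of more than 1 on the log2 scale.

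The responses of the probe sets were compared with each other over the arrays of the washed-out experiment, as the log2 signal of D10938exon_s_at minus that of another probe set on the same array. In the repeat run, NMDA against control, the response of D10938exon_s_at exceeded that of S76799_at by 1.41 (exact permutation test, 2-sided, n = 5 each, p = 0.0238, adjusted p = 0.143 over 6 pairs). The other 5 pairs lay between -0.28 and 0.33, with exact permutation adjusted p of 0.833. Without control replicates 3 and 4, the difference was 0.90 against S71201mRNA_at instead of 0.16, 0.89 against S76758_i_at instead of 0.33, 0.47 against rc_AI030286_s_at instead of 0.10, 0.31 against X67108_at instead of 0.14 and -0.29 against S71196mRNA_s_at. That against S76799_at was 1.40, and the exact permutation adjusted p lay between 0.268 and 0.679, where 5 arrays against 3 can give no raw p below 0.0357. These comparisons include probe sets that did not pass the filter on dim signals, namely X67108_at in both runs and S71201mRNA_at and S76758_i_at in the repeat run, and the offset understates the changes of such dim probe sets. For the first run the pair with S76799_at stood at 1.46, again with an exact permutation adjusted p of 0.143. After nicotine the same comparison, added once the data had been seen, gave 1.12 in the repeat run (adjusted p = 0.0476, exact permutation) and 2.03 in the first run (adjusted p = 0.00952, exact permutation). In each of these the raw p was 0.00794, the smallest that 5 arrays against 5 can give. S76799_at itself read 843, 991, 992, 1027 and 693 after nicotine and NMDA in the repeat run, which overlaps its signals after nicotine.

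In that first-run comparison after nicotine, D10938exon_s_at also exceeded S71201mRNA_at by 1.66, S76758_i_at by 1.61, X67108_at by 1.51 and S71196mRNA_s_at by 1.27 (adjusted p = 0.00952 each, exact permutation), and rc_AI030286_s_at by 0.53 (adjusted p = 0.111, exact permutation). On the repeat arrays these 5 differences were 0.27, 0.54, 0.79, 0.32 and -0.56, with exact permutation adjusted p from 0.222 to 0.532. The difference from S76799_at passed in both runs after nicotine and in neither run without it, and both runs hold the same samples. Its size in the repeat and first run was 1.12 and 2.03 after nicotine and 1.41 and 1.46 without it. Whether the differences with and without nicotine differ from each other was not tested.

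No Bdnf probe set passed the threshold after short nicotine or after 4R. D10938exon_s_at read 809, 836 and 494 after nicotine for 15 min and 680, 698 and 620 in controls, a difference of 0.06 (SE 0.24, 95% interval -0.47 to 0.59, adjusted p = 1 by limma). It read 648, 410 and 548 after 4R for 18 h and 676, 384 and 539 in controls, a difference of 0.02 (SE 0.27, 95% interval -0.63 to 0.66, adjusted p = 1). It read 688, 467 and 562 after 4R followed by 24 h without it and 295, 192 and 426 in controls, a difference of 0.78 (SE 0.38, 95% interval -0.08 to 1.64, adjusted p = 0.999). In the last of these the treated arrays lay above all controls, as they did for 4.75% of all 1263 probe sets, and the change did not pass. In the 3 contrasts 0 of 4, 0 of 3 and 0 of 4 Bdnf probe sets tested passed or had an unadjusted p under 0.05, and 0% of all probe sets passed in each.

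Members of the BDNF pathway were taken from a list of 60 genes, 19 of which were on the array. Ntrk2, the gene of TrkB, differed from control by -0.50, -0.12 and -0.06 after pulses of 10, 30 and 60 min (adjusted p = 0.767, 0.999 and 0.971 by limma), and by 0.05 after 360 min in NMDA (adjusted p = 0.967). Ngfr, the gene of p75, was at 0.10, -0.21 and -0.08 after the pulses (adjusted p = 0.986, 0.999 and 0.971) and at 0.39 after 360 min (adjusted p = 0.876). Ntf3, the gene of neurotrophin 3, was at -0.25, -0.51 and -0.37 after the pulses (adjusted p = 0.959, 0.999 and 0.971) and at 0.40 after 360 min (adjusted p = 0.899). None of these receptor and neurotrophin genes passed in any of these contrasts. Ntf4, the gene of neurotrophin 4, fell below the filter in the pulse and continuous runs. In the washed-out repeat run, NMDA against control, Ntrk2 was at 0.83 (adjusted p = 0.235), Ngfr at 0.10 (adjusted p = 0.904), Ntf3 at -0.77 (adjusted p = 0.377) and Ntf4 at -1.72 (adjusted p = 0.2), with 0 of these past the threshold.

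Of 15 list genes tested in the pulse run, 2 rose and 0 fell at each length, against 2.26%, 1.36% and 1.58% of all probe sets called. Crem, whose products bind the cAMP response element, rose by 2.42, 2.08 and 2.12 after 10, 30 and 60 min (adjusted p = 0.00452, 0.0209 and 0.0139). Fos, an immediate early gene known to respond to BDNF and to calcium, rose by 2.23, 1.96 and 1.77 (adjusted p = 0.00185, 0.00595 and 0.0139). The median log2 change over the tested list was -0.03, 0.12 and -0.06, beside -0.04, -0.06 and -0.11 over all probe sets. In continuous NMDA, Egr1 rose at 60 min by 2.29 (adjusted p = 0.0257 by limma) and Fos at 180 min by 2.36 (adjusted p = 0.0409). Each was the 1 list gene of 15 tested that passed at its time, where 0.679% and 0.452% of all probe sets passed. At 10, 30 and 360 min 0 list genes and 0% of all probe sets passed.

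In the washed-out first run, NMDA against control, Crem rose by 1.80 (adjusted p = 0.0025 by limma) and Fos by 0.78 (adjusted p = 0.0392). Map2k2, a kinase of the ERK pathway, fell by 0.42 (adjusted p = 0.0265). Thus 3 of 16 list genes tested passed, in a run where 13.9% of all probe sets did, and nothing is read from that count. On the repeat arrays 0 of 16 passed, against 0.226% of all probe sets, with Crem at 1.47 (adjusted p = 0.0922). In nicotine, 4R and interaction contrasts no list gene passed, and at most 0.339% of all probe sets did.

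Probe sets whose group differences most resembled those of D10938exon_s_at were ranked by Pearson's r over 17 treated groups, among 669 probe sets. Groups of a run share their control arrays, and the pulse groups lie far from the rest, so r is a description and has no p. The 8 highest were Vgf (0.929), Nptx2 (0.838), Fosl2 (0.821), Kcnf1 (0.812), Crem (0.811), Nefl (0.787), Kcna1 (0.777) and Adrb1 (0.738). Vgf codes for a secreted neuropeptide precursor, Nptx2 for a neuronal pentraxin, Fosl2 for an AP-1 factor, Kcnf1 and Kcna1 for potassium channel subunits, Nefl for the light neurofilament protein and Adrb1 for an adrenergic receptor. The 3 lowest were Asic2 (-0.900), Pnck (-0.885) and Camkk1 (-0.879), which code for an acid-sensing ion channel and for a pair of kinases of the calmodulin-dependent family.

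Vgf differed from control by 1.83, 1.65 and 1.76 after pulses of 10, 30 and 60 min, by 0.72 and 1.42 after 180 and 360 min in NMDA, and by -0.34 to 0.51 in the groups of the other runs. Its rank was 1 without the arrays that stand apart and 2 with the first washed-out run in place of the repeat run. Crem ranked 3 in both of these. Without the arrays that stand apart, Nptx2 ranked 41 with r of 0.574, Kcna1 28 with 0.629, Adrb1 25 with 0.647 and Kcnf1 17 with 0.749, while Fosl2 ranked 7 and Nefl 9. With the first washed-out run, Adrb1 ranked 40, Kcna1 16, Kcnf1 14, Fosl2 9, Nefl 8 and Nptx2 5. With another Bdnf probe set as the lead, Vgf was again the most alike for rc_AI030286_s_at (0.942), S71196mRNA_s_at (0.841), S76758_i_at (0.898) and X67108_at (0.770). For S71201mRNA_at it was Avpr2 (0.791) and for S76799_at Kcnma1 (0.919). Among these other leads, only S76799_at passed the filter on dim signals in all the runs used.

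Among the Bdnf probe sets, the same measure gave 0.973 between D10938exon_s_at and rc_AI030286_s_at, 0.862 with S76758_i_at, 0.782 with S71196mRNA_s_at, 0.778 with S76799_at and 0.773 with X67108_at. With S71201mRNA_at it was 0.241. Of the Bdnf probe sets, only D10938exon_s_at and S76799_at passed the filter on dim signals in all the runs used. The groups of the washed-out repeat run share the controls that stand apart, and r between Bdnf probe sets was not computed without them.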

How the data were processed

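The authors deposited linear intensity values for each array, and the sources used here do not name the software. Array means, after trimming 2% from either tail, were 2503 to 2513, and no further scaling was applied. An offset, the 10th percentile of a run's positive values, was added before taking log2. Each run was fitted once for all its groups (limma 3.58.1, R 4.3.3) with a mean-variance trend. A filter at the 30th percentile of run means kept 884 probe sets. Run means took in all groups of a run, so a probe set could pass through the groups where it was high. P-values are 2-sided and adjusted by the Benjamini-Hochberg method, with a threshold of 0.05. Each SE and 95% interval is limma's. Pairs of probe sets were compared with exact permutation tests (scipy 1.17.1). The fit was tested on simulated data.

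Groups came from the labels. The members, gene lists and tests were chosen with earlier results of these data known. The named genes are all Bdnf probe sets, the pathway list members that passed with Ntrk2, Ngfr and the neurotrophins, and the 8 most and 3 least alike probe sets. An array stood apart where its median correlation with its run lay over 3 scaled median absolute deviations below the run's median. Labels date the cultures of the pulse, crossed and 4R runs, so numbers there were taken to pair samples. The continuous run carries no dates. Its same-numbered arrays deviated together (lowest correlation 0.122), and its numbers were taken to pair samples on that ground alone. Elsewhere nothing says that replicates were separate cultures, and p-values measure only the spread between these samples. The number of arrays limits precision. Alternatives covered the offset, scaling, filter, block, arrays left out and the other run.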

Additional observations from a re-analysis of the deposited data

Results flagged for a closer look

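The readings of 1 Bdnf probe set in 1 group of 4 or 5 arrays made a set, and there were 84 such sets on shared arrays. In 3 of them a reading lay far from the rest of its group. Chance alone gives about 1 in 20 sets such a reading, so 3 of 84 is no more than chance gives. S71196mRNA_s_at read 107 in control replicate 3 of the pulse experiment, against 302 to 329 in the other controls. S76799_at read 688 in NMDA replicate 3 of the washed-out repeat run, against 965 to 1097 in the others. rc_AI030286_s_at read 160 in control replicate 3 of the washed-out first run, against 273 to 291 in the others.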

How the results depend on the processing

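The pulse differences of the lead stayed between 2.45 and 3.43 and those at 180 and 360 min between 2.05 and 3.35 under every alternative run. At 10 min in continuous NMDA the lead ranged from -0.41 to 1.13. The replicate block changed no call where numbers were taken to pair samples, and in the washed-out repeat run gave NMDA minus control as 0.58 (adjusted p = 0.4 by limma). The labels do not say whether numbers there pair samples, and the main fits and permutation tests used no pairing. Deviations of same-numbered arrays from their group means had a median correlation of 0.154 (lowest -0.1), against -0.031 for other arrays. In the first run these medians were 0.374 and -0.085, so pairing in the washed-out experiment is left undecided. Without the arrays that stand apart, crossed NMDA minus control was -0.19 and the interaction 0.35, also with the block or with offset and filter taken anew, both chosen after seeing the data. In the washed-out repeat run NMDA minus control passed with 1.68 in the first run (4 probe sets) and 1.41 (1 probe set) without the arrays that stand apart and with the block. Nicotine plus NMDA minus nicotine passed with 1.43 on its groups alone, 1.43 without the arrays that stand apart, with or without the block, 1.44 with offset and filter anew, 2.24 in the first run and 1.84 as the mean of both runs (2 probe sets each). With an offset of 16, quantile normalization or median centring 1 probe set passed there. Nicotine plus NMDA minus NMDA was -0.01 after quantile normalization. The difference in response from S71196mRNA_s_at was 0.67 in the first run. The cause was not tested.

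Leaving out 1 replicate gave ranges of -0.02 to 1.01 for crossed NMDA minus control, -0.11 to 0.41 for nicotine plus NMDA minus NMDA and -0.86 to 0.17 for the interaction there, and -0.26 to 0.23 for nicotine plus NMDA minus NMDA in the repeat run. The ranges were -0.06 to 0.28 for nicotine 15 min, -0.18 to 0.19 for 4R 18 h and -0.52 to 0.01 for 60 against 10 min. For responses compared with the lead they were -0.53 to 0.06 (S71196mRNA_s_at), -0.12 to 0.61 (S71201mRNA_at), -0.03 to 0.72 (S76758_i_at), -0.09 to 0.39 (X67108_at) and -0.05 to 0.46 (rc_AI030286_s_at).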
